A study of Mus musculus with 12 samples.

Results

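The genes described here encode the proteins of the mitochondrial ribosome and were taken by symbol, as Mrpl (large subunit) or Mrps (small subunit) followed by a digit, with an RPKM of 1 or more in at least 3 of the 12 libraries. All 76 genes with such a symbol passed this filter, 47 Mrpl and 29 Mrps genes, of 21671 genes in the table and 9745 genes that passed the same filter and were tested. RNA-seq had been run on FL5.12 cells, an IL-3-dependent mouse prolymphocytic (B-cell progenitor) line from BALB/c mice, which in all groups carried a retrovirally delivered, constitutively expressed MycER (hereafter FL MycER cells, a drug-selected pool). In MycER, MYC is fused to an estrogen receptor domain, so that the protein becomes active when 4-hydroxytamoxifen (OHT) is added. Untreated cells received neither compound, OHT cells were kept in 100 nM OHT for 72 h in all, IACS cells were given the complex I inhibitor IACS-010759 at 135 nM for 24 h, and OHT+IACS cells were primed with OHT for 48 h and then kept for 24 h in both. Each of the 4 groups had 3 libraries. No line without MycER was part of these libraries, so effects of OHT other than through MycER cannot be told apart from those of MycER. The comparisons ask what MycER activation, complex I inhibition and their combination did to these mRNAs.

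The mitochondrial ribosome translates the few proteins encoded by mitochondrial DNA, all of them core subunits of the respiratory chain and of ATP synthase, among them subunits of complex I. Its RNAs come from mitochondrial DNA, whereas all of its proteins are encoded in the nucleus, made in the cytosol and imported. Many of these proteins descend from bacterial ribosomal proteins, and others were added in the mitochondrial lineage. MYC is known as a regulator of genes for the mitochondrial translation machinery, and lymphoma cells with high MYC have been treated with drugs against the mitochondrial ribosome.

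Before the results, some facts of the libraries bear on these genes. The library totals recovered from the RPKM values ranged from 10376530 to 14550158 reads, with 4199266 to 5762340 reads on genes, and OHT replicates 1 and 3 had the smallest totals, at 0.776 and 0.805 of the total of untreated replicate 1. OHT replicates 1 and 2 differed most, with a chi-square per gene of 5.07, against 1.01 to 2.83 for all other replicate pairs. Of the B-cell precursor markers, Ptprc, Cd79b and Cd79a had a median RPKM of 1 or more and Pax5, Rag1, Dntt and Il7r were at 0 in all 12 libraries, whereas the IL-3 receptor genes Il3ra and Csf2rb were present and the granulocyte genes Mpo and Prtn3 had medians of 10.8 and 12.7 RPKM. Defining B-lineage genes such as Pax5 were thus at 0 in the labelled line, and markers of this and other cell types moved with the groups. Cd79b had means of 2.95, 1.36, 3.13 and 1.44 RPKM in untreated, OHT, IACS and OHT+IACS libraries. Those of Il3ra were 7.6, 5.9, 7.7 and 9.4 RPKM. The summed RPKM of 3 granulocyte markers was 33.6 to 34.3 in untreated, 18.2 to 23.2 in OHT, 23.8 to 30.6 in IACS and 17.7 to 19.1 in OHT+IACS libraries. That of 3 monocyte and macrophage markers was 20.6 to 21.7, 23.2 to 26.5, 23.9 to 26.2 and 31.2 to 34.1 in the same order, with Csf1r near 0. This sum followed Emr1, with group means of 16.6, 20.6, 21.0 and 27.4 RPKM, whereas Cd68 had 4.73, 4.50, 4.37 and 5.28 RPKM. The summed RPKM of 4 T cell markers was 2.15 to 2.56, 1.23 to 1.4, 2.46 to 2.53 and 1.84 to 1.95, with Cd3e at 0. For 3 erythroid markers it was 2.1 to 2.86, 2.76 to 3.42, 2.46 to 3.06 and 3.8 to 4.56. For 2 megakaryocyte markers it was 14.9 to 15.9, 11.4 to 12.5, 15.6 to 17.0 and 12.7 to 13.9. The part of these shifts in the results below was not tested. Less RNA of a gene per cell and fewer cells that express it cannot be told apart in bulk libraries. Myc itself fell with OHT, from 35.8 to 37.2 RPKM in untreated to 19.3 to 22.5 RPKM in OHT libraries (log2 fold change -0.81 ± 0.05 (SE), adjusted p = 1.7e-07 by limma), and was higher with IACS-010759 (0.34 ± 0.05, adjusted p = 0.00099 by limma).

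Mitochondrial ribosomal protein mRNAs were abundant in FL MycER cells. RPKM scales a gene's reads by its length and by the library total, which is meant to let levels of different genes be set side by side. Within groups, reads of densely covered genes grew less than in proportion to the library total. The slope of log2 reads on log2 total was 0.742 for the 16 members with 0.5 to 1 reads per base. Genes of unlike coverage are therefore not on 1 exact scale, and ranks among the most abundant members are approximate. The mean RPKM over the 12 libraries ran from 3.94 to 65.4 with a median of 26.2, against a median of 9.09 over all genes tested, and 67 of the 76 genes lay above the latter. The median was 28.5 RPKM for the Mrpl and 23.9 RPKM for the Mrps genes. The highest were Mrpl20 (65.4 RPKM), Mrpl36 (63.8 RPKM) and Mrpl18 (62.7 RPKM), all homologs of bacterial large subunit proteins. The lowest were Mrps31 (3.94 RPKM) and Mrps34 (4.51 RPKM), both small subunit proteins without a bacterial counterpart, and Mrpl13 (5.23 RPKM). The transcripts were short, with a median length of 1191 bases against 3148 over all genes tested, and each gene had between 53 and 1134 reads in a library.

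The mRNAs of many mitochondrial ribosomal proteins rose upon MycER activation, each by a modest amount. Of the 76 genes, 33 were higher in OHT than in untreated libraries and 0 were lower at an adjusted p under 0.05 (limma on the log2 of scaled RPKM, Benjamini-Hochberg over all genes tested); 42 had an unadjusted p under 0.05 and 66 had a log2 fold change above 0. Over all genes tested, 18.2% were higher and 18.2% lower, so the members called higher, 43.4% of 76, exceeded the background while none of the members was among the genes called lower. Calls lower were rarer among well covered genes. Of the 1832 genes tested with 0.3 or more reads per base, 25.1% were higher and 8.41% lower. Their median log2 fold change was 0.15, against 0.01 over all genes tested, and the 33 changes ran from 0.15 (Mrpl27) to 0.76 (Mrpl22). The other 43 genes did not pass the test, with values between -0.09 and 0.21 on the log2 scale.

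Mrpl22 showed the largest change of all members. The protein is the homolog of bacterial L22, which lines the tunnel through which the nascent chain leaves the ribosome. Its RPKM was 26.5, 26.4 and 27.0 in untreated, 50.6, 40.2 and 47.5 in OHT, 25.1, 26.2 and 27.0 in IACS and 41.0, 42.2 and 42.1 in OHT+IACS libraries. All 6 libraries with OHT lay above all 6 without it, the lowest of them at 40.2 RPKM. The log2 fold change was 0.76 ± 0.08 (SE, n = 3 per group, adjusted p = 1.1e-05 by limma), a 1.69-fold rise.

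Mrpl16, the homolog of bacterial L16 near the peptidyl transferase centre, followed. It was at 33.3, 32.6 and 33.7 RPKM in untreated and at 52.6, 48.3 and 53.0 RPKM in OHT libraries. With IACS-010759 it was at 35.7, 34.7 and 30.8 RPKM without OHT and at 45.1, 47.8 and 44.6 RPKM with it. Again the libraries with and without OHT did not overlap, and the change was 0.60 ± 0.06 (SE) on the log2 scale (adjusted p = 4.2e-06 by limma), or 1.52-fold.

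Among the small subunit proteins, Mrps15 (the homolog of bacterial S15, which binds the small subunit rRNA directly) rose from 18.2, 18.2 and 17.0 RPKM in untreated to 24.0, 23.0 and 23.1 RPKM in OHT libraries. Its log2 fold change was 0.37 ± 0.05 (SE, adjusted p = 6e-05 by limma), and here the smallest OHT value stood well clear of the highest untreated one. Mrps30 went from 21.8, 21.8 and 22.1 RPKM to 30.2, 27.8 and 31.7 RPKM, or by 0.42 ± 0.06 (adjusted p = 6.2e-05 by limma). Mrps30 has a small subunit symbol but sits in the large subunit, as does Mrps18a, which rose by 0.16 (adjusted p = 0.033 by limma). Of the 2 related genes whose products are in the small subunit, Mrps18b rose by the same 0.16 (adjusted p = 0.036 by limma), whereas Mrps18c had a log2 fold change of 0.12 and did not pass (adjusted p = 0.22 by limma).

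Further rises were found for proteins added in the mitochondrial lineage. Mrpl39 was at 24.7, 24.2 and 23.5 RPKM in untreated and at 35.2, 28.7 and 35.3 RPKM in OHT libraries (log2 fold change 0.43 ± 0.08, adjusted p = 0.00095 by limma). Mrpl50 went from 23.6, 24.7 and 21.5 to 31.1, 29.9 and 29.1 RPKM (0.34 ± 0.06, adjusted p = 0.00072 by limma). For both genes the groups did not overlap, but the Mrpl39 value of OHT replicate 2 lay well below the other two. Mrps22 and Mrps31, of the small subunit, rose by 0.31 and 0.29, and Mrpl45, which lies at the tunnel exit next to the inner membrane, rose by 0.26. Grouped by origin, 12 of 29 large subunit proteins with a bacterial counterpart were higher (median 0.16) and 8 of 17 without one (median 0.21). In the small subunit the counts were 6 of 16 (median 0.13) and 5 of 10 (median 0.15). Mrpl55, Mrps30, Mrps18a and Mrps36 were in none of these groups.

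Other members of known role did not pass the test. Mrpl12, which besides its place in the ribosome binds the mitochondrial RNA polymerase, had a log2 fold change of 0.06 (adjusted p = 0.61 by limma). Mrps12, the homolog of the bacterial S12 of the decoding centre, had -0.01 (adjusted p = 0.92 by limma), with 49.8, 47.8 and 49.0 RPKM in untreated and 52.1, 47.3 and 48.5 RPKM in OHT libraries. Mrpl44, an RNase III relative, had 0.17 (95% interval 0.01 to 0.33, adjusted p = 0.081 by limma) and Mrpl20, the most abundant member, 0.16 (-0.04 to 0.36, adjusted p = 0.19 by limma), values as large as those of some genes that passed. The 95% interval of Mrps12 ran from -0.17 to 0.15, and that of Mrpl12 from -0.13 to 0.26. A rise as large as that of Mrpl16 lies outside both, but a smaller called rise such as that of Mrpl36 (0.20) lies within the interval of Mrpl12.

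**Figure D1:**
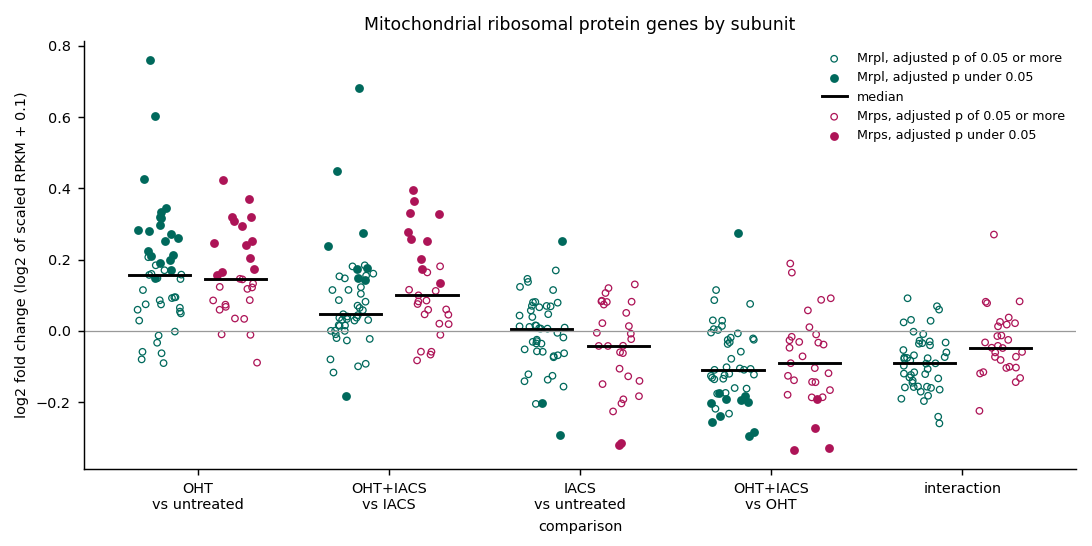
Log2 fold changes (vertical axis, log2 of scaled RPKM + 0.1) of the 47 Mrpl and 29 Mrps genes in each comparison (horizontal axis); each point is a gene, filled where the adjusted p was under 0.05, bars are medians, and the interaction is the IACS-010759 effect with OHT minus that without it. With OHT alone both subunits lie mostly above 0, with medians of 0.16 (Mrpl) and 0.14 (Mrps), and with IACS-010759 alone both medians lie near 0.

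Genes of both subunits rose with OHT. Of the Mrpl genes, 20 of 47 were higher (median log2 fold change 0.16), and of the Mrps genes 13 of 29 (median 0.14). When Mrps30 and Mrps18a were counted with the large subunit and Mrps36 was left out, 22 of 49 and 11 of 26 were higher, with medians of 0.16 and 0.14. The Mrpl median minus the Mrps median, taken per library against the untreated mean, was 0.03, -0.0029 and 0.0009 in the OHT libraries and 0.03, -0.02 and 0.0042 in the untreated libraries. These ranges overlapped, so no difference between the subunits larger than the spread between libraries was found with OHT.

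The size of the OHT effect on the members differed between the OHT libraries and went with the library total. Against the untreated mean, the median log2 difference of the 76 genes was 0.24, 0.06 and 0.15 in OHT replicates 1, 2 and 3, and 0.03, -0.02 and -0.0024 in the untreated libraries. OHT replicate 2, the lowest, was the deepest of the OHT libraries, with 13956222 reads against 10376530 and 10770476 reads. Of the 76 genes, 44 were above all 3 untreated libraries in OHT replicate 2, 75 in replicate 1 and 58 in replicate 3. The same count was not taken over all genes tested, so no trait of the members is read from it. Genes with many reads per base gained RPKM generally in the shallow libraries. Over all genes with 0.3 or more reads per base, of whatever function, the median was 0.21, -0.02 and 0.14 in the OHT libraries, and 25.1% of these 1832 genes were called higher with OHT. The members had a median of 0.33 reads per base, against 0.11 over all genes tested. The 43 members at or above 0.3 reads per base had 19 genes called higher (44.2%, median log2 fold change 0.16), against the median of 0.11 of all such genes. The 33 members under 0.3 reads per base had 14 called higher (42.4%, median 0.15), against 16.6% and a median of -0.02 over the 7913 genes tested under that value. Of those 7913 genes 4422 had under 0.1 reads per base, against 6 of the 33 members, so coverage was not matched here.

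**Figure D2:**
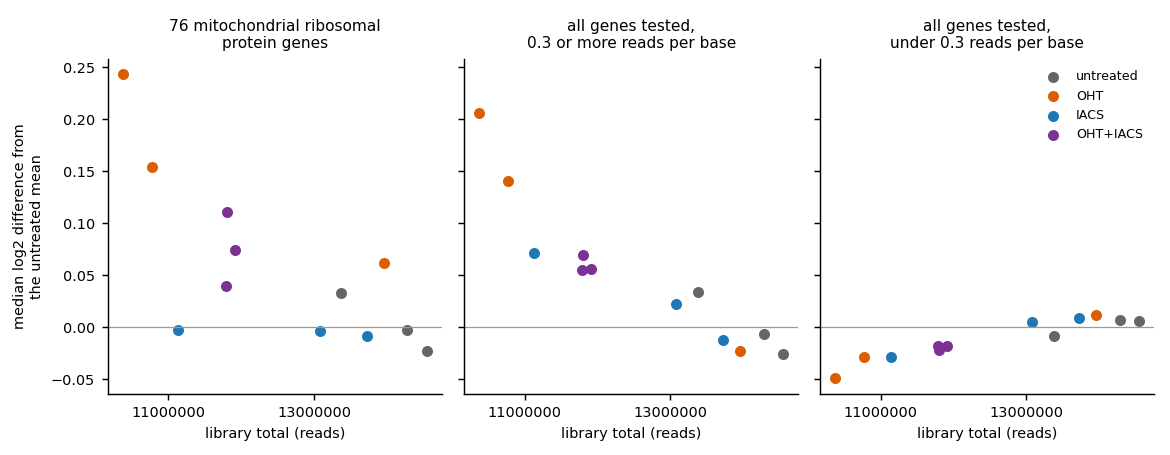
Median log2 difference from the untreated mean (vertical axis) against the library total (horizontal axis, reads) for each of the 12 libraries, for the members, for all genes tested with 0.3 or more reads per base and for all other genes tested; each point is a library. OHT replicates 1 and 3 are the smallest libraries and have the highest member medians, 0.24 and 0.15, and OHT replicate 2 has a member median of 0.06 at a total near those of the untreated libraries.

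With the library total as a covariate, 15 members were higher and 1 (Mrps16, -0.17) was lower with OHT, and the median log2 fold change was 0.08. Those 15 were Mrpl1, Mrpl16, Mrpl22, Mrpl30, Mrpl37, Mrpl38, Mrpl39, Mrpl45, Mrpl46, Mrpl50, Mrps2, Mrps6, Mrps15, Mrps27 and Mrps30. The covariate fit is itself 1 of the 24 other settings tried, so members called in all 24 had to be among these 15. All 15 were. In that fit Mrpl22 still rose by 0.57 and Mrpl16 by 0.56. The remaining 18 of the 33 genes did not pass in that fit, with log2 fold changes from 0.07 (Mrpl36) to 0.36 (Mrps31). Of these, Mrps31 (0.29 without the covariate), Mrps9 (0.25 without and 0.24 with it) and Mrpl19 (0.17 and 0.15) were about as large as before, with adjusted p of 0.063, 0.053 and 0.062 by limma, whereas Mrpl36 (0.20 and 0.07), Mrpl42 (0.25 and 0.10) and Mrpl13 (0.21 and 0.10) were smaller. Leaving out OHT replicate 1 gave 23 members higher with a median of 0.10, and leaving out OHT replicate 2 gave 45 with a median of 0.20.

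To see whether members that moved together shared letters near their starts, the RefSeq promoters (250 bases before to 50 after the start, GRCm38.p6) were searched on both strands for the E-box CACGTG bound by MYC, its variant CACGCG, and the motifs CCGGAAGT (ETS), AAGATGGCG (YY1) and that of NRF1, each counted apart from the others. A promoter was given for 67 of the 76 members. The E-box was found in 5 of them (7.46%), against 12.5% of the promoters of genes tested, and the variant in 13 (19.4%), against 20.9%. The ETS motif was found in 12 (17.9%, against 11% of genes tested) and the YY1 motif in 8 (11.9%, against 4.43%). An NRF1 motif was found in 3 (4.48%, against 2.77%). Of the 30 members called higher with OHT that had a promoter, 2 held the E-box, 6 the variant, 5 the ETS, 2 the NRF1 and 5 the YY1 motif, and of the other 37 members 3, 7, 7, 1 and 3 did. The promoters of the 2 members with the largest rise, of the member with the larger rise of those called that held the E-box, and of the member that fell most with IACS-010759 are shown, with matches in capitals (a match is a description of the letters only):
Mrpl22 (chr11:58171414-58171713, plus strand, no match): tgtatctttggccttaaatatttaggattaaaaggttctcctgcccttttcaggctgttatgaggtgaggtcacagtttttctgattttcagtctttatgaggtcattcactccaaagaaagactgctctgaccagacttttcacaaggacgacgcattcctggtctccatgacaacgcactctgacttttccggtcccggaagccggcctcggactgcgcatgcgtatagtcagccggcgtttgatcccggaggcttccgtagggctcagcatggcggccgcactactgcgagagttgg
Mrpl16 (chr19:11770165-11770464, plus strand, variant E-box): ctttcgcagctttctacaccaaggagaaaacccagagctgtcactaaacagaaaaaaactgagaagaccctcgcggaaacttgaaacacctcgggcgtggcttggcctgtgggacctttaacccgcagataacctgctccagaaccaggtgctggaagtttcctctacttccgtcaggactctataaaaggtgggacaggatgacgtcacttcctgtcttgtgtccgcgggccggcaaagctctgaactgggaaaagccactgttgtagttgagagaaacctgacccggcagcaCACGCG
Mrpl37 (chr4:107066817-107067116, minus strand, E-box and YY1): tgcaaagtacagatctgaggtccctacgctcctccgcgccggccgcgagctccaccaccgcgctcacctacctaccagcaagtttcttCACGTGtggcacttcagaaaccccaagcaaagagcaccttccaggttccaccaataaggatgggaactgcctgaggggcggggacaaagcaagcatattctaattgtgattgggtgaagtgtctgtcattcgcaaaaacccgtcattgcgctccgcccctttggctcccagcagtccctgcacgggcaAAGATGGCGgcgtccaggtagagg
Mrps36 (chr13:100744610-100744909, minus strand, no match): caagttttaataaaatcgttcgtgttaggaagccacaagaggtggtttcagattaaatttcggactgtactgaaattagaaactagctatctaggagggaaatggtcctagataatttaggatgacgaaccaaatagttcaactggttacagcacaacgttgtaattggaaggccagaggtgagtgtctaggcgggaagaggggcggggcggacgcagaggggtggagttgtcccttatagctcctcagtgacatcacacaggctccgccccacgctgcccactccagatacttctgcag

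Members also rose with OHT in cells given IACS-010759, and nearly all of them were genes that were higher with OHT alone as well. Between OHT+IACS and IACS libraries, 18 of the 76 members were higher and 1 was lower, against 12.3% and 14.2% of all genes tested. Their median log2 fold change over the 76 was 0.07, against 0.00 over all genes tested and 0.03 over those with 0.3 or more reads per base. Of the 18 genes, 17 (94.4%) were among the 33 raised by OHT alone, of which they made up 51.5%, and the exception was Mrps10. These comparisons share no library, but the spread of each gene was estimated from all 12 libraries together. The calls in both are therefore not independent. Over all genes tested, 894 were higher in both, or 74.7% of the 1197 and 50.5% of the 1769 called higher. The largest changes were again those of Mrpl22 (0.68 ± 0.08, adjusted p = 4.1e-05 by limma) and Mrpl16 (0.45 ± 0.06, adjusted p = 8.7e-05 by limma). Mrps15 went from 17.8, 17.7 and 17.3 RPKM in IACS to 22.8, 23.8 and 22.7 RPKM in OHT+IACS libraries (0.39 ± 0.05), and Mrps30 from 24.0, 22.6 and 22.8 to 30.7, 28.9 and 29.4 RPKM (0.36 ± 0.06). Mrps31 and Mrps22 rose by 0.33 each. Mrpl24, a homolog of bacterial L24, which starts large subunit assembly in bacteria, was the only member called lower, by 0.18 on the log2 scale (adjusted p = 0.014 by limma). It was at 29.1, 29.3 and 27.6 RPKM in IACS libraries and between 24.0 and 26.5 RPKM in the 9 others.

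Here the subunits differed in their counts, with 8 of 47 Mrpl genes (17%, median 0.05) and 10 of 29 Mrps genes (34.5%, median 0.10) called higher. Against the untreated mean, the Mrpl median exceeded the Mrps median in all 3 IACS libraries, by 0.04, 0.05 and 0.03, and by 0.01, -0.01 and -0.01 in the OHT+IACS libraries. The highest untreated value was 0.0295, below IACS replicates 1 and 2 (0.0368 and 0.0507) and above IACS replicate 3 (0.0276). The difference between the subunits was not tested. Library totals were 11133789 to 13729131 reads in the IACS and 11792608 to 11913079 reads in the OHT+IACS libraries. With the library total as a covariate 17 of the 19 called members passed again. The count of 18 was 9, 11 and 12 without OHT+IACS replicates 2, 3 and 1, and 12 without IACS replicate 2 or 3, and no member was called lower without OHT+IACS replicate 1 or 3.

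Complex I inhibition alone gave few calls among these mRNAs, and the count depended on the setting. Of the 76 members, 1 was higher and 4 were lower in IACS than in untreated libraries, or 1.32% and 5.26%, against 8.15% and 7.74% of all genes tested. The median log2 fold change was -0.01, and the member median against the untreated mean was -0.0033, -0.0086 and -0.0027 in the 3 IACS libraries. By subunit, 1 Mrpl gene was higher and 2 were lower, and 2 Mrps genes were lower. The count of 4 lower was 11 with the library total as a covariate, 11 with weights per library and 10 with quantile normalization. It was 1 without untreated replicate 1 or 3 or IACS replicate 3, 2 without untreated replicate 2, 7 without OHT replicate 1 and 8 without OHT replicate 2.

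The clearest fall was that of Mrps36. Despite its symbol, its product is known as a subunit of the 2-oxoglutarate dehydrogenase complex of the TCA cycle and is not seen in structures of the mammalian mitochondrial ribosome. It was at 20.7, 21.0 and 20.5 RPKM in untreated, 21.7, 22.2 and 20.9 in OHT, 18.3, 16.8 and 15.8 in IACS and 17.4, 16.0 and 18.0 in OHT+IACS libraries. All 6 libraries with IACS-010759 lay below all 6 without it. The log2 fold change was -0.32 ± 0.06 (SE, adjusted p = 0.0028 by limma) without and -0.33 ± 0.06 (adjusted p = 0.0016 by limma) with OHT, and Mrps36 was the only member called in each of the 24 other settings in the IACS against untreated comparison.

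The other members called lower with IACS-010759 alone were Mrps11, Mrpl41 and Mrpl34. Mrps11, a homolog of bacterial S11 on the small subunit platform, was at 26.7, 24.8 and 25.0 RPKM in untreated and at 23.2, 21.8 and 17.9 RPKM in IACS libraries (-0.32 ± 0.09, adjusted p = 0.029 by limma). Its exons overlap those of Mrpl46 on the opposite strand, and whether the counting used strand is not given in the sources used here. Mrpl41 was at 15.9, 15.1 and 16.6 RPKM in untreated and at 12.6, 14.3 and 12.6 RPKM in IACS libraries (-0.29 ± 0.08, adjusted p = 0.025 by limma). Mrpl34, one of the smallest ribosomal proteins, had -0.20 ± 0.06 (adjusted p = 0.038 by limma). For each of these genes the IACS and the untreated libraries did not overlap, though by a small margin, and each of these calls was lost in some of the other settings.

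Mrpl23 went the other way. The protein is the homolog of bacterial L23, which lies at the exit of the nascent chain tunnel. It was at 30.1, 28.6 and 30.1 RPKM in untreated, 31.5, 27.3 and 29.4 in OHT, 38.4, 37.0 and 32.6 in IACS and 37.9, 34.9 and 33.8 in OHT+IACS libraries. The values with IACS-010759 lay above those without it, and the log2 fold change was 0.25 ± 0.07 (adjusted p = 0.028 by limma) in nonprimed and 0.28 ± 0.07 (adjusted p = 0.014 by limma) in OHT-primed cells. With the library total as a covariate the first of these was 0.22 with an adjusted p of 0.06 by limma.

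**Figure D3:**
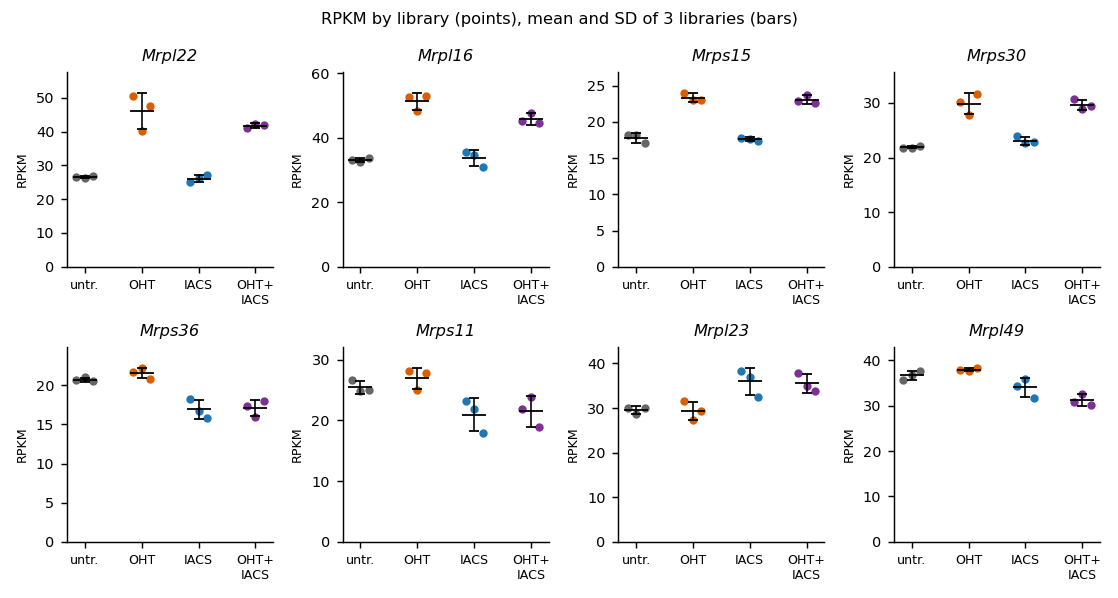
RPKM (vertical axis, from 0) of 8 members in the 12 libraries, by group (horizontal axis); points are libraries, and bars are the mean and SD of 3 libraries. Mrpl22, Mrpl16, Mrps15 and Mrps30 were higher in all libraries with OHT, Mrps36 and Mrps11 lower and Mrpl23 higher with IACS-010759, and Mrpl49 was at 30.2 to 32.7 RPKM in the OHT+IACS libraries.

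In OHT-primed cells some members fell with IACS-010759. Between OHT+IACS and OHT libraries 14 (18.4%) were lower and 1 (Mrpl23, 1.32%) was higher, against 11.8% and 11.9% of all genes tested. The median log2 fold change was -0.11, against -0.01 over all genes tested and -0.05 over those with 0.3 or more reads per base. Of the 14, 10 were Mrpl genes (21.3% of 47, median -0.11) and 4 Mrps genes (13.8% of 29, median -0.09), the latter share near that of all genes. This comparison shares its OHT libraries with that of OHT against untreated, and OHT replicates 1 and 3, the smallest libraries and those with the highest member medians, are in both. The count was 4 without OHT replicate 1, 4 without OHT+IACS replicate 3, 9 without OHT replicate 3 or without OHT+IACS replicate 2, and 30 without OHT replicate 2, whereas with the library total as a covariate it was 22.

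The largest falls were those of Mrps36 (above), Mrps11 (-0.33 ± 0.09, adjusted p = 0.018 by limma) and Mrpl18 (-0.30 ± 0.08, adjusted p = 0.018 by limma). Mrpl18, the homolog of a bacterial 5S rRNA-binding protein, was at 74.0, 61.3 and 72.9 RPKM in OHT and at 59.8, 56.5 and 52.7 RPKM in OHT+IACS libraries, and its exons overlap those of Tcp1 on the opposite strand. Mrpl49, a large subunit protein of the mitochondrial lineage, gave tighter values, with 38.0, 37.6 and 38.4 RPKM in OHT and 30.8, 32.7 and 30.2 RPKM in OHT+IACS libraries (-0.28 ± 0.05, adjusted p = 0.001 by limma). Its 3 OHT+IACS values lay below 8 of the 9 others, the exception being IACS replicate 3 at 31.8 RPKM. The exons of Mrpl49 overlap those of Syvn1 on the opposite strand. Mrps12 fell by 0.27 and Mrpl34 by 0.26. Mrpl49, Mrpl51 and Mrps36 were the members called lower in each of the 24 other settings. Of the 4 members lower with IACS-010759 alone, Mrpl34, Mrps11 and Mrps36 were also lower in primed cells (75% of 4 and 21.4% of 14). These comparisons share no library but use the same estimate of each gene's spread. Over all genes tested these shares were 54% and 35.5%.

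**Figure D4:**
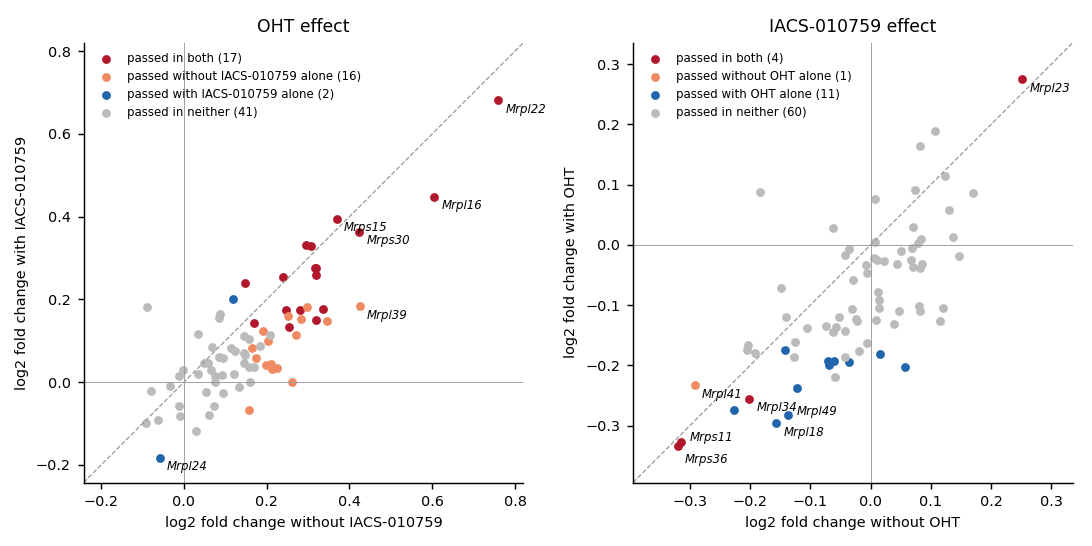
Log2 fold changes of the 76 members for OHT (left) without (horizontal axis) and with IACS-010759 (vertical axis), and for IACS-010759 (right) without (horizontal axis) and with OHT (vertical axis); each point is a gene, coloured by the comparisons in which its adjusted p was under 0.05, and the dashed line marks equal change. For OHT 17 genes passed in both, led by Mrpl22 and Mrpl16, and for IACS-010759 Mrps36, Mrps11, Mrpl34 and Mrpl23 did.

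No member passed the test of the difference itself. In the interaction, the IACS-010759 effect with OHT minus that without it, 0 of the 76 members were called by limma, 6 had an unadjusted p under 0.05, and 61 had a value below 0 with a median of -0.07. Over all genes tested 0.144% were called higher and 0% lower, and the median was -0.01 (-0.08 over genes with 0.3 or more reads per base). The smallest p-values were those of Mrpl45 (-0.26 ± 0.08, adjusted p = 0.19 by limma), Mrps18b (-0.22 ± 0.08, adjusted p = 0.26 by limma) and Mrpl1 (-0.17 ± 0.07, adjusted p = 0.33 by limma). Mrpl45 was at 22.7, 21.3 and 22.5 RPKM in untreated, 28.3, 25.5 and 27.0 in OHT, 24.0, 23.7 and 22.8 in IACS and 23.9, 23.5 and 22.8 in OHT+IACS libraries. Its values in OHT libraries lay above all others, and those of OHT+IACS were within the range of IACS alone. The larger count of falls in primed than in nonprimed cells is therefore not shown to be a difference between them. With the library total as a covariate the median of the interaction was -0.02.

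Some mitochondrial ribosomal proteins go under other symbols. Of 6 such genes tested, 4 (66.7%) were higher with OHT, against 18.2% of all genes tested. They were Ptcd3 (0.28), Dap3 (0.23), Ict1 (0.21) and Gadd45gip1 (0.16), while Chchd1 (0.17) and Aurkaip1 (0.08) did not pass. Dap3, the GTP-binding protein of the small subunit, was at 13.5, 14.0 and 13.9 RPKM in untreated and at 17.1, 15.1 and 17.4 RPKM in OHT libraries. With IACS-010759, 0 of the 6 were called in either background. Over all genes tested, 8.15% were higher and 7.74% lower without OHT, and 11.9% and 11.8% with it. A count of 0 among 6 genes is near those shares. With OHT on top of IACS-010759, Dap3, Ptcd3 and Gadd45gip1 were higher (50%, against 12.3% of all genes tested).

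The factors that assemble the mitochondrial ribosome were tested as well. Of 24, 6 (25%) were higher and 2 (8.33%) lower with OHT, against 18.2% each over all genes tested. Noa1, a GTPase needed for the small subunit, went from 8.52, 8.43 and 9.36 RPKM to 17.2, 18.7 and 19.2 RPKM, or by 1.04 ± 0.06 (adjusted p = 1e-07 by limma), more than any ribosomal protein described here. It was at 18.1, 18.2 and 18.1 RPKM in OHT+IACS libraries, whereas Mrm1, a methyltransferase of the large subunit rRNA, fell with OHT by 0.34. With IACS-010759 alone 4 factors (16.7%, against 7.74%) were lower, namely Rbfa (-0.37), Ybey (-0.35), Malsu1 (-0.28) and Ddx28 (-0.18), and Rpusd4 (0.18) was higher (4.17%, against 8.15%). The median of the 24 factors against the untreated mean was -0.04, 0.0041 and -0.19 in IACS replicates 1, 2 and 3. Rbfa was at 20.4, 21.2 and 20.6 RPKM in untreated and at 18.6, 17.5 and 13.5 RPKM in IACS libraries. IACS replicate 3, the lowest, had the smallest total of the IACS libraries. In OHT-primed cells 4 factors (16.7%, against 11.8%) were lower with IACS-010759, among them Ftsj2 (-0.38) and Fastkd2 (-0.23), and Mrm1 (0.27) was higher (4.17%, against 11.9%). Between OHT+IACS and IACS libraries Noa1 (1.16), Rbfa (0.48) and Malsu1 (0.44) were higher and Mrm1 (-0.22) was lower. These were 12.5% and 4.17% of the 24 factors, against 12.3% and 14.2% of all genes tested. The share called higher was thus near that of all genes.

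Counts were also taken for other mitochondrial gene groups. With OHT, when 18.2% of all genes tested were called in each direction, 6 of 16 mitochondrial translation factors were higher (37.5%) and 2 lower (12.5%), with a median of 0.12. Of 17 mitochondrial tRNA synthetases 5 were higher (29.4%) and 1 lower (5.88%), with a median of 0.06. Of 36 nuclear complex I subunits, whose partners encoded by mitochondrial DNA are made on these ribosomes, 6 were higher (16.7%, near the share of all genes) and 1 lower (2.78%), with a median of 0.10. With IACS-010759 alone 5 synthetases were higher (29.4%, against 8.15% of all genes) and 2 lower (11.8%, against 7.74%), whereas the translation factors had 1 and 1 (6.25% each) and the complex I subunits 1 and 1 (2.78% each). In OHT-primed cells, against 11.9% and 11.8% of all genes, 4 synthetases were higher (23.5%) and 2 lower (11.8%), 1 translation factor was higher (6.25%) and 4 lower (25%), and 2 complex I subunits were higher (5.56%) and 1 lower (2.78%).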

How the data were processed

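RNA-seq of rRNA-depleted total RNA was available for 12 libraries, 3 in each of 4 groups named from the labels. The authors deposited RPKM values, and the submitters' processing notes name TopHat2 2.0.8, SAMtools, featureCounts 1.4.5-p1, DESeq2 and mm9; the annotation and strand setting are not given in the sources used here. Columns with the authors' own test results (log2 changes and q-values) were left aside. Whole reads, gene lengths and library totals were recovered from the RPKM steps for all 15451 genes above 0. RPKM were scaled by median ratios, and log2(RPKM + 0.1) was fitted with limma 3.58.1 (R 4.3.3, trend, all 12 libraries, two-sided, Benjamini-Hochberg within each of 5 comparisons, threshold 0.05); fold changes are on that scale and understate those of low genes. The DESeq2 test of the methods needs counts and was not run; voom on the recovered reads was an alternative. Replicates are called biological in the methods; p-values measure the spread between these libraries. The code was tested on simulated data. Genes, lists and tests were chosen with earlier results of these data known. Named were the 6 largest changes per direction and comparison, the 3 smallest p of the interaction, the 3 highest and lowest by RPKM, a list of known roles, and Myc; of the assembly factors up to 4 per comparison; others were named after their values were seen. Of the members, 21 have exons that overlap another gene (3 on the same strand, among them Mrps6 with Slc5a3 and Mrps34 with Nme3; GENCODE vM21). Same-numbered libraries of different groups had correlations of deviations of -0.17 to 0.10, so numbers do not pair them. No column of per-library values was left unused. 1 cell type marker is not reported here.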

Additional observations from a re-analysis of the deposited data

How the results depend on the processing

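The values below are log2 fold changes or counts of the 76 members. Over the single genes named and the 24 other settings, 131 calls were lost and 94 gained, and no called change turned its direction. For OHT against untreated, 15 members were higher and 1 was lower with the library total as a covariate (median 0.079); 2 were lower with quantile normalization (median 0.089) and 3 with weights per library, where the Mrpl minus the Mrps median was -0.015. For IACS against untreated, the counts higher and lower were 0 and 1 without a filter, 2 and 10 with quantile normalization (subunit difference 0.029), 4 and 11 with weights and 0 and 11 with the covariate; 2 were higher with RPKM as deposited and 3 with only the groups compared. For OHT+IACS against OHT, 2 were higher with a minimum of 5 RPKM, 3 with RPKM as deposited and 3 with quantile normalization; 4 were lower with only the groups compared; weights gave 6 and 30 (subunit difference -0.04) and the covariate 3 and 22. For OHT+IACS against IACS, 4 were lower with quantile normalization (subunit difference -0.019), 2 with weights and 4 with the covariate (subunit difference -0.036). In the interaction, weights gave 1 higher and 7 lower, and the covariate a median of -0.023. The cause of these shifts was not tested.

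Leaving out 1 library at a time gave, for OHT against untreated, 22 (without untreated replicate 2) to 45 (without OHT replicate 2) members higher, 0 lower, a median of 0.097 to 0.201 and a subunit difference of -0.012 to 0.02. For IACS against untreated it gave 0 to 2 higher, 1 to 8 lower, and a subunit difference of 0.028 to 0.056. For OHT+IACS against OHT it gave 1 to 3 higher, 4 to 30 lower and a median of -0.151 to -0.049. For OHT+IACS against IACS it gave 9 (without OHT+IACS replicate 2) to 21 higher, 0 to 1 lower and a subunit difference of -0.06 to -0.029. The interaction gave 0 to 2 lower (2 without OHT replicate 2), a median of -0.124 to -0.021 and a subunit difference of -0.067 to -0.024.

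The replicate number as a block gave 35 members higher for OHT against untreated (33 without the block), 5 lower for IACS against untreated, 13 lower for OHT+IACS against OHT, and 14 higher for OHT+IACS against IACS; of the 12 libraries, 1 correlated best with its own number. Reads of abundant genes grew less than in proportion to the library total within groups (slope of log2 reads on log2 total 0.184 for genes with 1 or more reads per base, 1.39 for those under 0.1, and 0.906 for the members), so that group differences of the members cannot be told apart in full from differences in depth with these totals.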
